A study of Mus musculus with 8 samples.

Results

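Type I interferon response genes are the genes that cells switch on when interferon α or β binds its receptor. A list of 47 such genes was followed in MOPC tumours, and each was taken by its symbol in the array's annotation and measured by its brightest probe set, by mean log2 signal over all arrays. Of the 47 genes, 44 had a probe set that names no other gene, and 43 were bright enough to be tested among 12976 of the 18194 genes on the array. Isg15, which encodes a ubiquitin-like modifier, was covered here only by a probe set shared with Gm9706, and Oas1g and Ifi44 had no probe set with their symbol. Mx2 lay below the limit for testing, with signals of 15.0 to 33.0 over the 8 arrays. The 43 genes were sorted into 8 roles: the IFIT family with viperin, other antiviral effectors, the OAS family with other enzymes of double-stranded RNA, the ISG15 system, transcription factors, nucleic acid sensors, TRIM and PARP proteins with nuclear bodies, and other induced genes.

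The receptors TLR3, TLR7 and TLR9 sit in the endosome and detect double-stranded RNA, single-stranded RNA and unmethylated CpG DNA. They signal through TRIF or MyD88 and can start the transcription of type I interferons, which then act through Ifnar1 and Ifnar2, the kinases Jak1 and Tyk2, and transcription factors, Stat2 and Irf9 among them, that bind the interferon-stimulated response element (ISRE) of the target genes. Cytosolic sensors such as RIG-I, MDA5 and cGAS reach the same genes without endosomal TLRs, and many of the genes also respond to interferon-γ.

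Tumours had been grown subcutaneously from MOPC cells, a mouse oropharyngeal carcinoma line, in C57BL/6 hosts. The groups were Tlr3/7/9-/- (KO) hosts and wild-type (WT) hosts at day 6 after injection, and KO and WT hosts at day 4, with 2 tumours in each group and 8 arrays in all. The genotype is that of the host, the injected cells being the same line in every group, so the signals mix tumour cells that keep their receptors with host cells that lack them in KO mice. The labels give no age or sex for an array, and they do not say that the 2 tumours of a group came from separate mice, which the study's text describes for the arrays of day 6 alone. For day 4 the spread behind the p-values may thus not be that between mice, although the 2 tissue samples of each group differed in muscle transcripts, as given below. Xist, the RNA that coats the inactive X chromosome, had signals of 5579 to 7121 in the 4 tumours of day 6 and of 44.6 to 142.1 in the 4 tumours of day 4, so that day and the sex of the host cannot be told apart.

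Signals are linear intensities, fold changes are differences of log2(signal + 16), which understate the change of dim genes, and a gene was called at a Benjamini-Hochberg adjusted p under 0.05 over all 12976 genes in limma. On its brightest probe set Tlr7 had signals of 80.1 and 10.8 in KO and of 471 and 466 in WT tumours at day 6, and of 70.0 and 25.2 in KO and of 383 and 673 in WT tumours at day 4. Its log2 fold changes of −3.26 at day 6 and −3.14 at day 4 did not pass limma's test (adjusted p = 0.704 and 0.368), nor did those of Tlr3, −1.05 and −0.92 (adjusted p = 0.713 and 0.523), and Tlr9 lay below the limit for testing. Some tumours held tissue of the injection site. The summed signal of 8 skeletal muscle markers was 128077 in WT day 4 replicate 2, 47216 in KO day 6 replicate 2 and 18558 in KO day 4 replicate 2, against 711 to 1006 in the other 5 arrays. The summed signal of 8 markers of cornified skin was 24698 in KO day 6 replicate 2 and 1656 to 3544 in the other 7. Siglech, a marker of plasmacytoid dendritic cells, the main producers of interferon α, had signals of 18.6 to 136.8 over all arrays. Other markers listed for these cells were brighter, such as Tcf4 at 5425 to 7361 and Bst2 at 1919 to 3683. Of the 6 tested, 4 were positive for KO over WT at day 6 and 2 at day 4, with medians of 0.16 and −0.31 and 0 called. Bst2, at −0.37 and −0.46, is itself an interferon response gene of the list. Cox6a2, at 0.63 and −1.29, was brightest in tumours with muscle transcripts. It had 1641.3 in WT day 4 replicate 2 and 805.5 in KO day 6 replicate 2, against 229.9 to 447 elsewhere. At day 4 the rest were mixed, with Siglech at −0.65, Klk1 at −0.17, Spib at 0.01 and Tcf4 at 0.19. These medians thus do not measure plasmacytoid dendritic cells alone. In bulk RNA, fewer cells of a type and less RNA per cell cannot be told apart.

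The interferon response genes were at their highest in a single tumour, KO day 6 replicate 1, and at their lowest in the KO tumours of day 4. The median of the 43 genes, each set against its own mean over the 8 arrays on the log2 scale, was 0.61 and −0.17 in the KO tumours of day 6, −0.02 and 0.01 in the WT tumours of day 6, −0.31 and −0.39 in the KO tumours of day 4, and −0.02 and 0.23 in the WT tumours of day 4. KO day 6 replicate 1 was the highest of the 8 arrays for 30 of the 43 genes, while it was the highest for 8.76% of all genes tested. WT day 4 replicate 2 was the highest for another 9 genes and WT day 4 replicate 1 for 4. The lowest array was KO day 4 replicate 2 for 17 genes and KO day 4 replicate 1 for 9. The 2 KO tumours of day 6 differed from each other more than the tumours of any other group did. Replicate 1 exceeded replicate 2 for 42 of 43 genes, with a median log2 difference of 0.78, against 43.8% of all genes and a median of −0.04 over them. In WT tumours of day 6 replicate 1 was above replicate 2 for 20 of 43 genes, in KO tumours of day 4 for 28 and in WT tumours of day 4 for 13, against 51.4%, 48.3% and 46.4% of all genes in the same order. Replicate 2 is the KO tumour of day 6 that held the skin and muscle transcripts, and the part of that tissue in the gap was not tested.

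**Figure D1:**
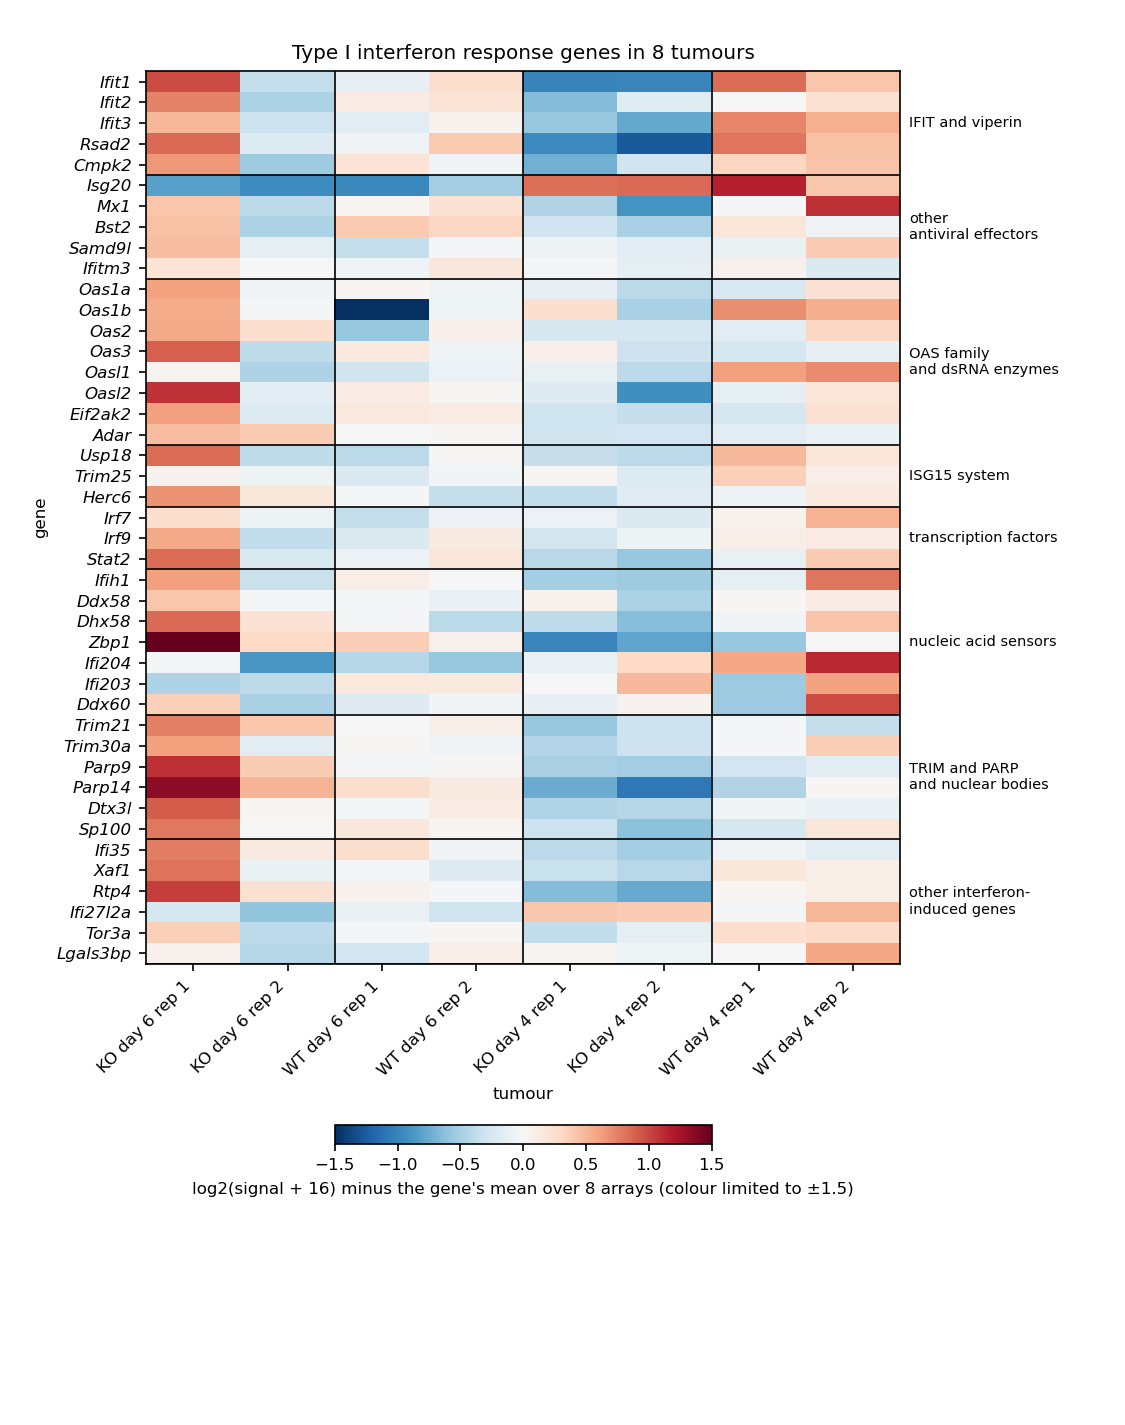
Log2(signal + 16) of the 43 tested genes (rows, by role) in the 8 tumours (columns), each minus the gene's mean over all arrays, with colour limited to ±1.5. KO day 6 replicate 1 is the highest array for 30 genes, and the 2 KO tumours of day 4 are blue in most rows, with Isg20 and Ifi27l2a among the exceptions.

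The roles differed in the size of these levels and in part in their direction. Genes of the IFIT family with viperin, which block viral RNA, had the widest swing, with median levels of 0.75 and −0.36 in KO and −0.05 and 0.20 in WT tumours of day 6, and of −0.72 and −0.77 in KO and 0.73 and 0.42 in WT tumours of day 4. The TRIM and PARP genes were the only role whose median was above that of both WT tumours in both KO tumours of day 6, at 0.85 and 0.20 in KO against 0.01 and 0.07 in WT tumours. At day 4 their medians were −0.47 and −0.47 in KO and −0.15 and −0.04 in WT tumours. The 3 transcription factors, Irf7, Irf9 and Stat2, had medians of 0.57 and −0.23 in KO and −0.21 and 0.14 in WT tumours at day 6, where the groups overlap. At day 4 they had medians of −0.27 and −0.22 in KO and 0.05 and 0.39 in WT tumours. The 5 other antiviral effectors had medians of 0.42 and −0.39 in KO and −0.06 and 0.16 in WT tumours at day 6, where their median log2 fold change of KO over WT was −0.11, with 2 positive and 3 negative.

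**Figure D2:**
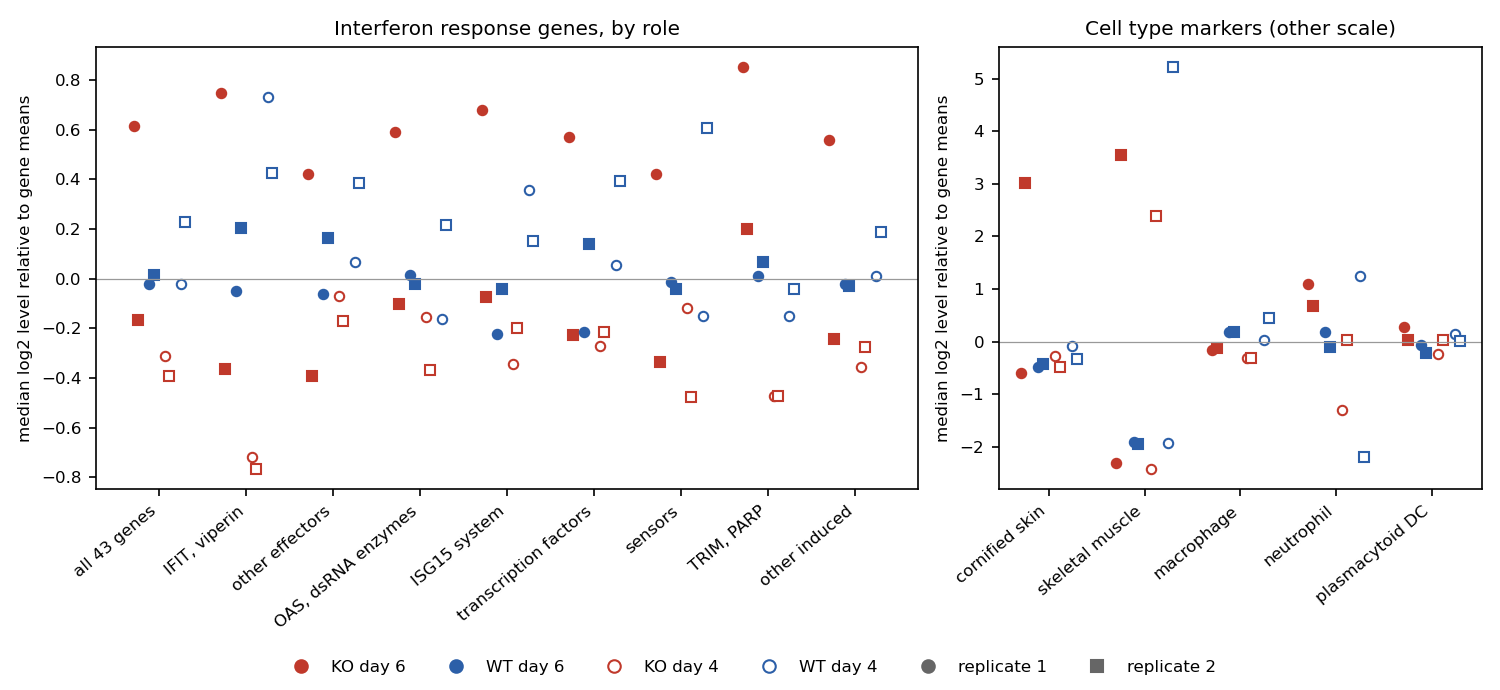
Left, median log2 level of the genes of each role in each tumour, relative to each gene's mean over 8 arrays; right, the same for marker genes of other cell types, on another scale, where the plasmacytoid dendritic cell (DC) list includes Bst2. Each point is a tumour, filled for day 6 and open for day 4, red for KO and blue for WT, with circles for replicate 1 and squares for replicate 2; KO day 6 replicate 1 has the highest or second highest median of every role, and KO day 6 replicate 2 stands at 3.01 for cornified skin.

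At day 6, the question was whether interferon response genes differ between tumours of hosts with and without Tlr3, Tlr7 and Tlr9. Most had a somewhat higher mean in KO tumours, a direction that rested on KO day 6 replicate 1, and none passed the test. Of the 43 genes 33 had a positive and 10 a negative log2 fold change of KO over WT, with a median of 0.25 and a range of −0.58 to 1.05, while the median over all genes tested was −0.01 and 48.3% were positive. In limma 0 were called (smallest adjusted p = 0.742), against 0.00771% of all genes called higher and 0.00771% called lower. At an unadjusted p under 0.05 in limma 8 were higher and 0 lower, against 2.34% and 4.01% of all genes. The methods' t-test called 0 after Benjamini-Hochberg adjustment, against 0% of all genes, and without it 1 higher and 1 lower, against 2.34% and 3.52% of all genes. Both KO tumours lay above both WT tumours for 11 genes and below them for 1, against 16.1% and 20.9% of all genes. The 1 below was Ifi203, at −0.58 on its own probe set, while those it shares with other genes gave 0.21 to 0.59.

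The genes furthest above WT belonged to several roles. Oas1b, of the OAS family, had dim signals of 163 and 104 in KO and of 27.2 and 100.4 in WT tumours, giving a log2 fold change of 1.05 ± 0.52 (standard error, limma adjusted p = 0.819). Its WT tumours differed from each other by more than the group means did, and without WT day 6 replicate 1 the fold change was 0.33. Dhx58, which encodes the RNA sensor LGP2, had signals of 726 and 462 in KO and of 386.5 and 294 in WT tumours, giving a log2 fold change of 0.75 ± 0.28 (adjusted p = 0.760 in limma). Zbp1, a sensor of Z-form nucleic acid, had 3621.5 and 1429.9 in KO and 1506 and 1216 in WT tumours, and its groups overlapped. Parp9, which acts with the ubiquitin ligase Dtx3l, had 4418.5 and 2683 in KO and 2027.5 and 2096 in WT tumours, giving a log2 fold change of 0.74 ± 0.21 (adjusted p = 0.742 in limma). For Dhx58 and Parp9 both KO tumours were above both WT tumours, with replicate 1 far above replicate 2. Parp14, a mono-ADP-ribosyltransferase, differed by 0.72 ± 0.28, and Herc6, the main ISG15 ligase of mice, by 0.61 ± 0.23. Oas2, a synthetase of the 2-5A that activates RNase L, had 954 and 761 in KO and 423 and 673 in WT tumours. Rtp4, a receptor transporter protein, had 7623 and 4348 in KO and 3850.3 and 3657 in WT tumours. Without KO day 6 replicate 1 the fold changes were 0.08 for Zbp1, 0.21 for Rtp4, 0.31 for Parp14, 0.35 for Herc6, 0.38 for Parp9 and 0.44 for Dhx58, and Oas2 gave 0.33 without WT day 6 replicate 1. None of these 8 genes passed limma's test, and Zbp1 was the only one of them whose groups overlapped.

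The sign of the median at day 6 rested on a single tumour. Without KO day 6 replicate 1 the median over the 43 genes was −0.19, with 16 positive and 27 negative, and without KO day 6 replicate 2 it was 0.62, with 40 positive and 3 negative. The neutrophil markers, 4 genes, summed to 7616 and 5859 in KO and 4148 and 3406 in WT tumours. The 7 macrophage markers summed to 85842 and 85824 in KO and 104218 and 103376 in WT tumours. All 5 tested dendritic cell markers were negative, Cd209a lowest at −4.26, and 1 was called, against 0.00771% of all genes called lower. All 4 tested NK cell and all 5 endothelial markers were negative, with medians of −0.75 and −0.24 and 0 called. All 6 tested cornified skin and all 7 muscle markers were positive, with 0 called. The part of these cells in the fold changes was not tested.

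At day 4 the pattern was the other way round, and it was more even between replicates. Interferon response genes were lower in KO than in WT tumours for 39 of 43 genes and higher for 4, with a median log2 fold change of −0.44 and a range of −1.72 to 0.21, while the median over all genes was 0.01 and 51.7% were positive. Both KO tumours lay below both WT tumours for 32 of the 43 genes, against 16.8% of all genes, and above them for 0, against 19.6%. None passed the test over all genes. In limma 0 were called (smallest adjusted p = 0.352), against 0.00771% of all genes in each direction, and at an unadjusted p under 0.05 in limma 13 were lower and 0 higher, against 3.26% and 3.85%. The methods' t-test called 0 after Benjamini-Hochberg adjustment, against 0% of all genes, and without it 11 lower and 0 higher, against 2.63% and 3.65% of all genes.

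The IFIT family with viperin stood lowest, and all 5 of its genes were below WT, with a median of −1.30. Rsad2 encodes viperin, an enzyme that makes a chain-terminating nucleotide against viral RNA synthesis. It had signals of 862 and 699 in KO and of 2948 and 2292 in WT tumours, 3.30-fold lower on the log2(signal + 16) scale, a log2 fold change of −1.72 ± 0.32 (adjusted p = 0.352 in limma). Its other probe sets gave −1.69 and −1.86. Ifit1, which binds viral RNA that lacks the host's cap methylation, had 408 and 413 in KO and 1506 and 1120 in WT tumours, giving a log2 fold change of −1.62 ± 0.38 (adjusted p = 0.466 in limma). Ifit3, its binding partner, had 798 and 693 in KO and 1986 and 1732 in WT tumours, giving a log2 fold change of −1.30 ± 0.25 (adjusted p = 0.361 in limma). For each of these 3 genes the gap between genotypes was wider than that between the tumours of a group. Cmpk2, a nucleotide kinase encoded beside Rsad2, had 190.5 and 259.8 in KO and 409 and 440.3 in WT tumours, giving a log2 fold change of −0.88 ± 0.37 (adjusted p = 0.686 in limma).

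Other roles held genes lower to a smaller degree. Mx1, a gene of the dynamin-like GTPases, had 159.5 and 113 in KO and 219.9 and 499.6 in WT tumours. Its log2 fold change was −1.21 and changed to −0.65 without WT day 4 replicate 2, so its size rested on that tumour. Oasl1, which in mice restrains the translation of Irf7, had 585 and 479.6 in KO and 977 and 1048 in WT tumours, giving a log2 fold change of −0.91 ± 0.21 (adjusted p = 0.466 in limma). Ifih1, the sensor MDA5, had 686 and 675 in KO and 885 and 1726 in WT tumours, and Rtp4 had 2360.5 and 2184 in KO and 3792 and 3934 in WT tumours. The WT tumours differed from each other for Ifih1, whose log2 fold change was −0.85 with all arrays and −0.37 without WT day 4 replicate 2, and those of Rtp4 lay close together. The probe set that Isg15 shares with Gm9706 had a log2 fold change of −0.74. The 4 genes above 0 had fold changes of at most 0.21, that of Ifi203, whose 3 shared probe sets gave −1.11 to −0.34.

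The muscle transcripts were present in a single tumour of each genotype at day 4, with a larger sum in WT (128077) than in KO (18558). All 7 tested muscle markers were negative for KO over WT, with a median log2 fold change of −1.95 and 0 called. Between the tumours without muscle transcripts, replicate 1 of each genotype, Rsad2 had 862 in KO and 2948 in WT, and Ifit1 had 408 in KO and 1506 in WT. With the 3 tumours that hold muscle left out, a choice made after seeing the data, the median over the 43 genes was −0.34, with 8 positive. Leaving out each array in turn gave medians of −0.56 to −0.38. The 7 macrophage markers summed to 74477 and 67434 in KO and 90896 and 116996 in WT tumours, all 7 being negative with a median log2 fold change of −0.52 and 0 called. The 4 neutrophil markers summed to 1565 and 4418 in KO and 11823 and 953 in WT tumours. The part of either cell type in the difference was not tested.

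**Figure D3:**
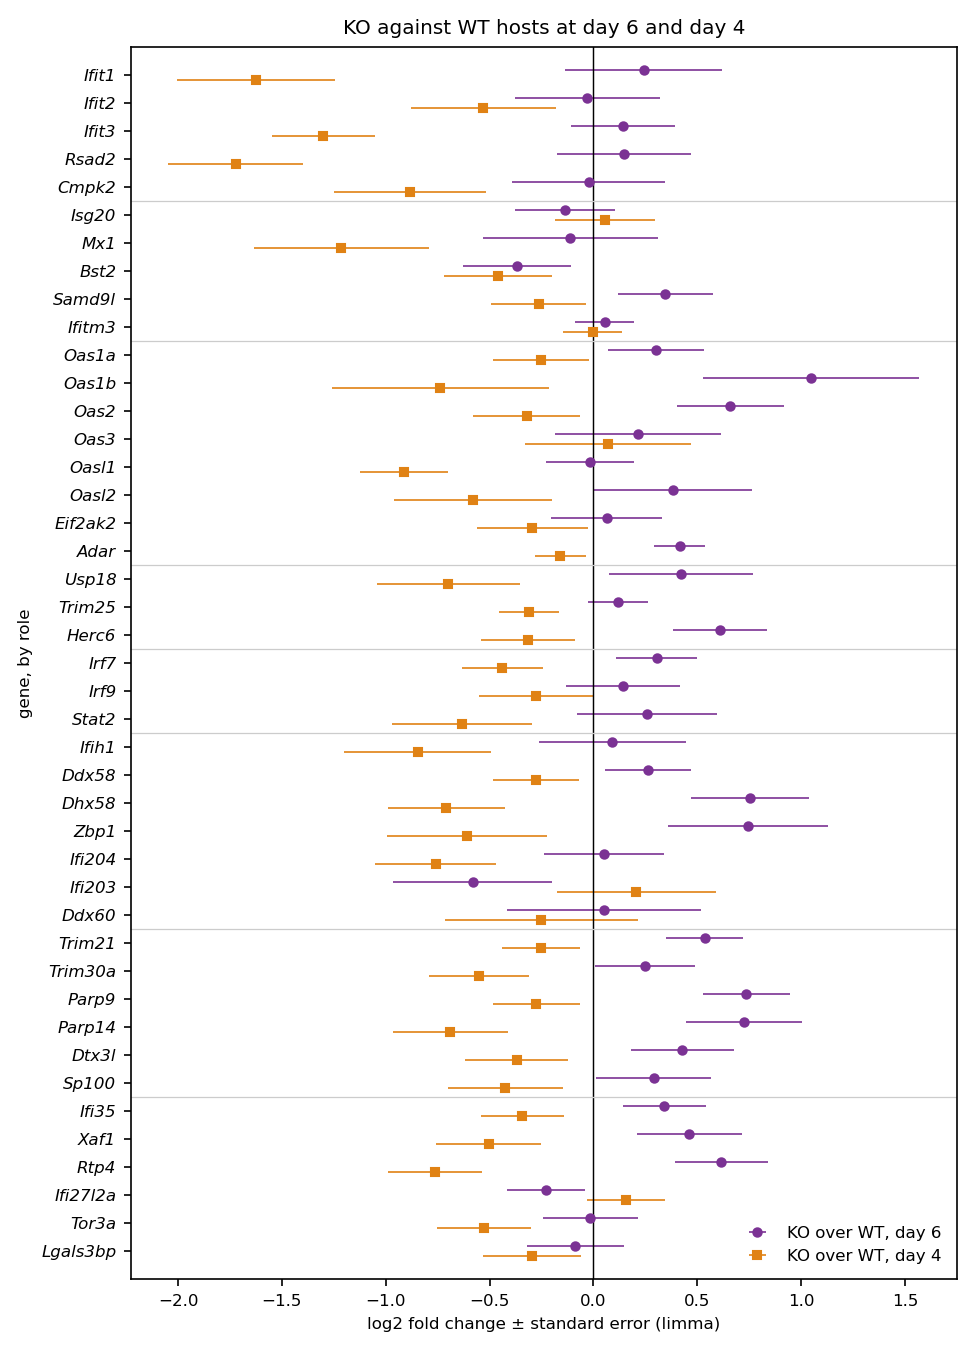
Log2 fold change of KO over WT for each of the 43 genes, by role, with limma's standard error, at day 6 (purple circles) and day 4 (orange squares). At day 6 33 genes lie right of 0, and at day 4 39 lie left of it, those of the IFIT family and viperin furthest.

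The promoters of the genes were read for the ISRE, the element through which type I interferon acts on them. RefSeq promoter sequences of build GRCm38.p6 were at hand for 34 of the 47 genes. The ISRE core was searched as GAAA, any 2 bases and GAAA again, on both strands and with overlapping matches counted, in the 250 bases before the annotated start. It was found in 12 of the 34 genes (35.3%), against 3.46% of all 27025 genes with a promoter. The 4 promoters below hold it and belong to the genes with the largest fold changes between days or over both days among those that do. They are Rsad2 (chr12:26456453-26456702, minus strand), Ifit1 (chr19:34640639-34640888, plus strand), Stat2 (chr10:128270248-128270497, plus strand) and Ifit3 (chr19:34583279-34583528, plus strand), each written on the gene's own strand with the matches in capitals.
Rsad2: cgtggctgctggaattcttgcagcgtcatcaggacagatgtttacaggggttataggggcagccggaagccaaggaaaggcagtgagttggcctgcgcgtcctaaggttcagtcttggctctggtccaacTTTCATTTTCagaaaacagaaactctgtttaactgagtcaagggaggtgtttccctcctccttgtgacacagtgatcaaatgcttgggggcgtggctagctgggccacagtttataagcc
Ifit1: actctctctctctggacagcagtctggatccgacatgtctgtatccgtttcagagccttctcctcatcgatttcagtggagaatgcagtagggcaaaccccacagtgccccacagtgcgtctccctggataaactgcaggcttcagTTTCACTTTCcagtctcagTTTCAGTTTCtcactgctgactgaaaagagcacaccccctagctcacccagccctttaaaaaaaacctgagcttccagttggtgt
Stat2: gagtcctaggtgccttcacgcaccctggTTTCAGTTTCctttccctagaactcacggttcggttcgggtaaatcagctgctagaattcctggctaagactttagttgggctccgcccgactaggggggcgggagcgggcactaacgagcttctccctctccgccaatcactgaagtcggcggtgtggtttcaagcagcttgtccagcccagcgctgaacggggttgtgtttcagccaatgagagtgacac
Ifit3: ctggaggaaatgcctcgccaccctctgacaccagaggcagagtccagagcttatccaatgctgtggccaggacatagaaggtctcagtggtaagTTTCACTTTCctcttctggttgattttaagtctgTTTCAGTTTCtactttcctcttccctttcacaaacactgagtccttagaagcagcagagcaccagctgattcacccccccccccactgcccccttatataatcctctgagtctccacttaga
All matches among these 4 lie on the opposite strand, so they read TTTC, 2 bases and TTTC. In Ifit1 they begin 104 and 85 bases before the start, in Ifit3 156 and 122, in Rsad2 120 and in Stat2 222. Among tested genes, the 10 with a match had a median log2 fold change at day 4 of −0.50 and the 21 with a promoter but no match one of −0.31. The 12 tested genes without a promoter sequence had a median of −0.69. At day 6 the medians were 0.18 with a match, 0.26 with a promoter but no match and 0.64 without a promoter sequence, and the difference between the days of the genotype effect had medians of 0.68, 0.68 and 1.11. At day 4 the 3 sets span −1.72 to 0.21, −0.91 to 0.05 and −1.21 to 0.16, so they overlap over most of their range, and a match is a description and not a binding site.

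**Figure D4:**
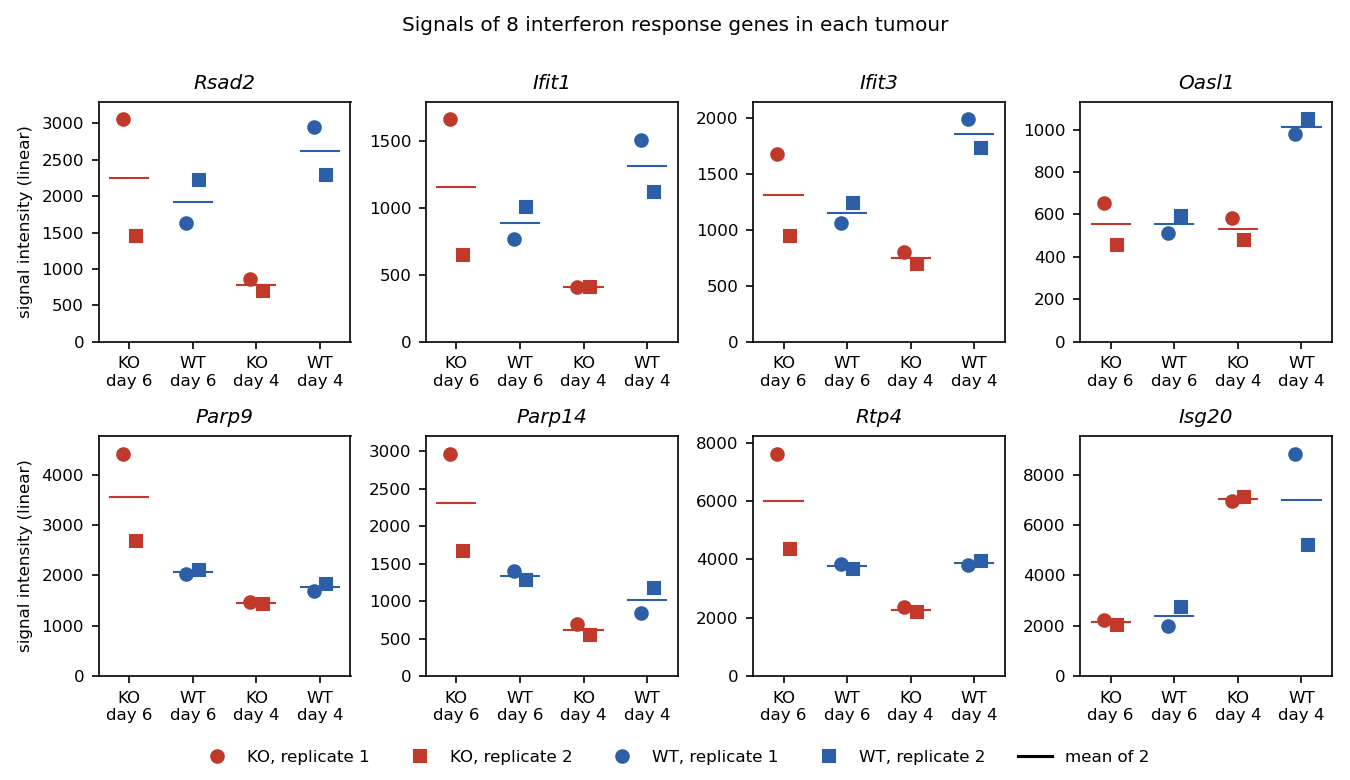
Signal intensity (linear, each panel from 0) of 8 genes in each tumour, KO in red and WT in blue, with circles for replicate 1, squares for replicate 2 and a line at the mean of 2. Rsad2, Ifit1 and Ifit3 are lowest in the KO tumours of day 4, Oasl1 is highest in the WT tumours of day 4, Parp9, Parp14 and Rtp4 are highest in KO day 6 replicate 1, and Isg20 is high at day 4 in both genotypes.

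The change from day 4 to day 6 was followed within each genotype, in comparisons that share their tumours with those of genotype. In these comparisons day and the sex of the host cannot be told apart. In KO hosts 8 of the 43 genes rose by day 6 and 2 fell, against 3.71% of all genes called higher and 2.52% called lower in limma. The median log2 fold change of day 6 over day 4 was 0.60, with 37 genes positive, while the median over all genes was close to 0 and 50% were positive. Both tumours of day 6 were above both of day 4 for 25 genes and below them for 3, against 30.7% of all genes in each direction. The 20 genes higher at an unadjusted p under 0.05 in limma compare with 13.8% of all genes. The methods' t-test called 0 after adjustment, against 0.00771% of all genes, and without it 2 higher and 2 lower, against 11.2% and 9.09%.

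The genes that rose were spread over 5 roles. Zbp1 had signals of 3621.5 and 1429.9 at day 6 and of 579.8 and 663.5 at day 4, a log2 fold change of 1.85 ± 0.38 (adjusted p = 0.0348 in limma). Parp14 had 2969.6 and 1663 at day 6 and 689.8 and 543 at day 4, a log2 fold change of 1.83 ± 0.28 (adjusted p = 0.0205 in limma). Rsad2 had 3056 and 1459 at day 6 and 862 and 699 at day 4, a log2 fold change of 1.43 ± 0.32 (adjusted p = 0.0416 in limma). For all 3 the groups were apart, and the tumours of day 6 were further from each other than those of day 4. Rtp4 rose by 1.34 ± 0.22, Parp9 by 1.24 ± 0.21, and Trim21, a cytosolic antibody receptor and ubiquitin ligase, by 1.02 ± 0.19 on the log2 scale. Ifi35, a partner of Nmi in inflammatory signalling, rose by 0.90 ± 0.20 and Adar, the enzyme that edits adenosine to inosine in double-stranded RNA, by 0.72 ± 0.12. Adar was the most even of these, with 1902 and 1808 at day 6 and 1115 and 1129 at day 4.

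In KO hosts 6 of the 43 genes were negative, and 2 of them, Isg20 and Ifi27l2a, fell. Isg20, a 3′ to 5′ exonuclease of RNA, had signals of 2230.4 and 2037 at day 6 and of 6969 and 7109.8 at day 4, a log2 fold change of −1.72 ± 0.24 (adjusted p = 0.0161 in limma). Ifi27l2a, a small interferon-induced membrane protein, had 6449 and 5111 at day 6 and 10195 and 10074 at day 4, a log2 fold change of −0.82 ± 0.19 (adjusted p = 0.0432 in limma). Both were lower in both tumours of day 6.

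The count in KO hosts depended on the arrays in the fit. It was 2 without KO day 6 replicate 1, Rtp4 and Isg20, and 0 without either KO tumour of day 4. Without KO day 6 replicate 1 the fold changes of Zbp1, Rsad2 and Ifi35 were 1.18, 0.90 and 0.59. With each array scaled to its median, which moved the median of all genes by 0.17 in KO and 0.19 in WT hosts, 13 genes rose and 1 fell. Markers of other cells moved between the days as well. In KO hosts all 4 neutrophil markers were positive with a median of 1.37, summing to 7616 and 5859 at day 6 and to 1565 and 4418 at day 4, and all 3 tested T cell markers with a median of 0.88, with 0 called in either list. In WT hosts 3 of the 4 neutrophil markers were positive with a median of 0.49, and all 3 T cell markers with a median of 0.92. In other lists, 2 of 6 tested keratinocyte and carcinoma markers, 1 of 7 macrophage markers and 1 of 4 NK cell markers rose in KO hosts, against 3.71% of all genes. There 2 macrophage and 2 NK cell markers were negative, and 1 of 6 fibroblast markers fell, against 2.52%. In WT hosts 1 of 6 keratinocyte and carcinoma and 2 of 5 endothelial markers rose, against 4.16% of all genes. In the same hosts 1 of 6 fibroblast markers fell, against 1.66%. In KO hosts 5 of 6 cornified skin markers were positive with a median of 1.73 and 0 called. The part of these cells in the change was not tested.

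In WT hosts 0 genes rose and 2 fell by day 6, against 4.16% of all genes called higher and 1.66% called lower in limma. The median log2 fold change was −0.22, with 15 positive and 28 negative, while over all genes it was 0.01 and 51.1% were positive. Both tumours of day 6 were above both of day 4 for 9 genes and below them for 15, against 29.1% and 24.6% of all genes. At an unadjusted p under 0.05 in limma 0 were higher and 8 lower, against 15.3% and 10.3% of all genes, and the methods' t-test called 0 after adjustment, against 0% of all genes, and without it 0 higher and 4 lower, against 6.54% and 4.25%. Isg20 had 2009 and 2743 at day 6 and 8846 and 5194.5 at day 4, a log2 fold change of −1.52 ± 0.24 (adjusted p = 0.0195 in limma). Ifi204, a DNA sensor of the PYHIN family, had 1172 and 1063 at day 6 and 2373 and 3489.7 at day 4, a log2 fold change of −1.35 ± 0.29 (adjusted p = 0.0357 in limma). Both tumours of day 6 were below both of day 4 for each gene. Oasl1 had 514 and 595 at day 6 and 977 and 1048 at day 4, a log2 fold change of −0.85 ± 0.21 that did not pass (adjusted p = 0.0538 in limma). Oas1b at −1.39, Ifit3 at −0.69, Ifit1 at −0.56, Usp18, the protease that removes ISG15, at −0.52 and Irf7, which drives the transcription of interferon α, at −0.51 did not pass either. Without WT day 6 replicate 1 Oas1b was at −0.68 and Usp18 at −0.32, Ifit1 was at −0.35 without WT day 4 replicate 1, and Irf7 at −0.28 without WT day 4 replicate 2.

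The count in WT hosts was 0 without WT day 6 replicate 1 or without either KO tumour of day 4, tumours that enter through the common spread, 1 without WT day 6 replicate 2 or WT day 4 replicate 2, and 3 when KO day 6 replicate 2 was left out. The median was −0.02 without WT day 4 replicate 2 and −0.04 with each array scaled to its median, so the size of the WT median rested on that tumour and on the scaling.

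**Figure D5:**
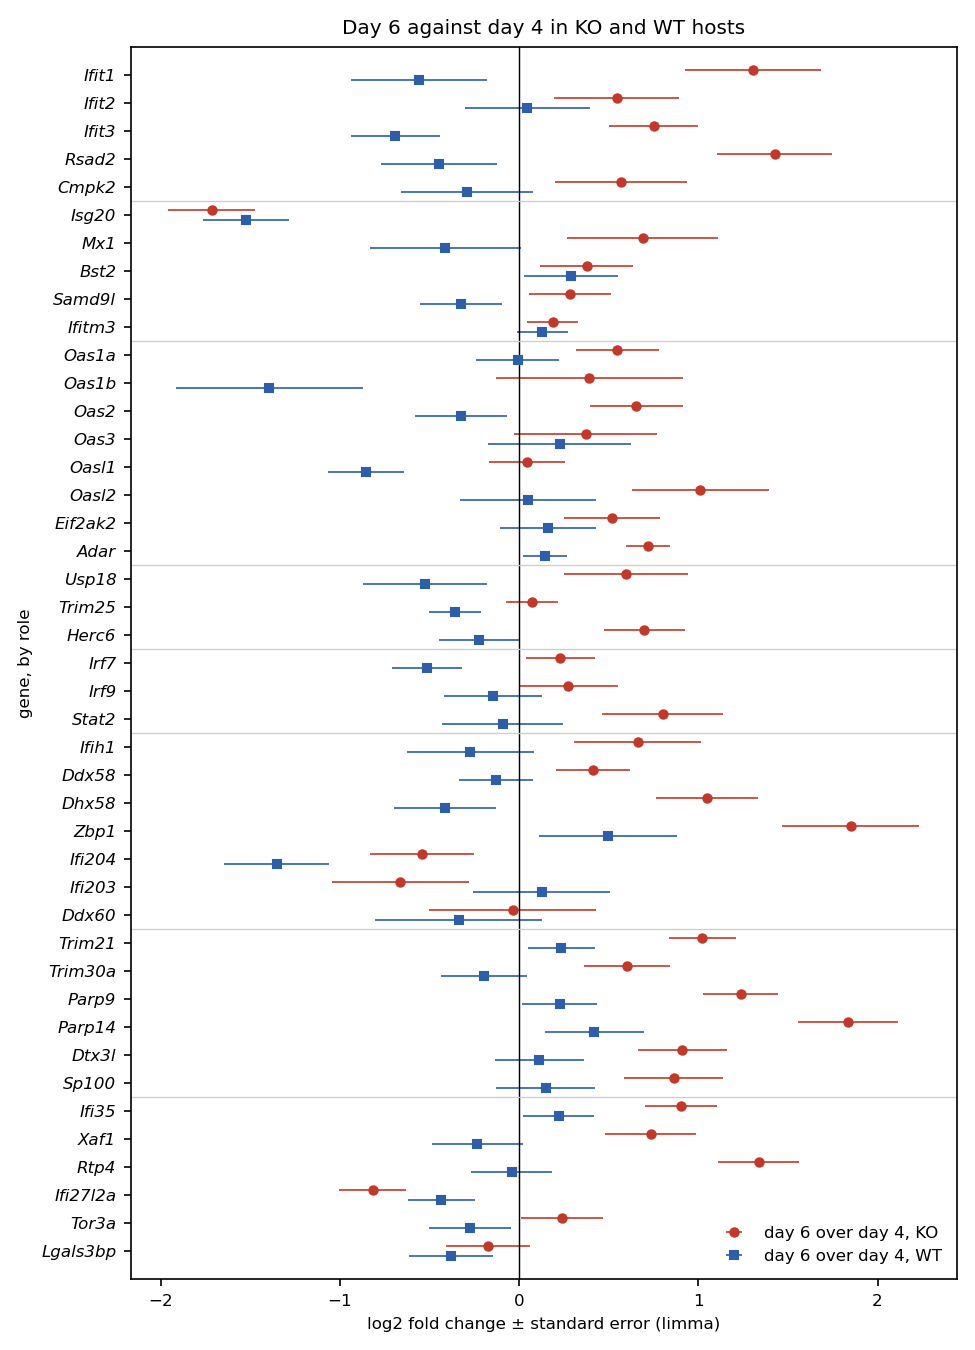
Log2 fold change of day 6 over day 4 for each of the 43 genes, by role, with limma's standard error, in KO hosts (red circles) and WT hosts (blue squares). In KO hosts 37 genes lie right of 0 and in WT hosts 15, and Isg20 lies far to the left in both.

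Over both days, no difference between KO and WT tumours in these genes passed limma's test. Nor did that of Tlr7, which KO hosts lack, at −3.20 (adjusted p = 0.0848 in limma). The average over days joins medians of opposite sign, 0.25 at day 6 and −0.44 at day 4. Of the 43 genes 0 were called, against 0.0231% of all genes higher and 0.00771% lower, and 14 were positive and 29 negative with a median of −0.07, while 50.2% of all genes were positive. With each array scaled to its median 22 were positive and 21 negative. The lowest were Rsad2 at −0.79 ± 0.23 (adjusted p = 0.424 in limma), Ifit1 at −0.69, Mx1 at −0.66 and Ifit3 at −0.58. Oasl1 at −0.47, Cmpk2 at −0.45, Bst2, the tether that holds budding virus on the cell, at −0.41 and Ifih1 at −0.38 followed. These sizes rested on single tumours, that of Oasl1 the least. Without KO day 6 replicate 1 and without KO day 6 replicate 2 they were −1.05 and −0.52 for Rsad2, −1.03 and −0.36 for Ifit1, −0.78 and −0.38 for Ifit3, −0.75 and −0.16 for Cmpk2, −0.64 and −0.18 for Bst2, and −0.62 and −0.14 for Ifih1. Mx1 gave −0.95 without WT day 4 replicate 1 and −0.38 without WT day 4 replicate 2. Oasl1 gave −0.59 without KO day 6 replicate 1 and −0.34 without KO day 6 replicate 2. At an unadjusted p under 0.05 in limma 4 genes were lower and 0 higher, against 4.78% and 3.91% of all genes.

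The genotype difference itself was compared between the days as an interaction, in which day again goes with the sex of the host. The log2 difference of KO over WT at day 6 exceeded that at day 4 for 40 of the 43 genes, with a median of 0.80, while the median over all genes was −0.03 and 45.9% were positive. In limma 0 genes of the list were called, against 0% of all genes in each direction (smallest adjusted p = 0.996), and at an unadjusted p under 0.05 in limma 19 were higher and 0 lower, against 2.03% and 2.34% of all genes. Ifit1 at 1.87 ± 0.54, Rsad2 at 1.87 ± 0.46 and Oas1b at 1.79 ± 0.74 had the largest values. Dhx58 at 1.46, Ifit3 at 1.44, Parp14 at 1.41, Rtp4 at 1.38 and Zbp1 at 1.35 followed. Without KO day 6 replicate 1 Ifit1 gave 1.20 and Zbp1 0.69, and without WT day 6 replicate 1 Oas1b gave 1.07. Both KO tumours were above both WT tumours at day 6 and below them at day 4 for 9 genes, against 1.9% of all genes, and the reverse held for 0, against 2.75%. Chosen after their values were seen, these 9 were Oas1b, Oas2, Irf7, Dhx58, Rtp4, Herc6, Parp9, Parp14 and Adar. The median of the interaction was 0.37 without KO day 6 replicate 1 and 1.14 without KO day 6 replicate 2.

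Few genes of the type I interferons, their receptor and its signalling were called. Of 18 type I interferon genes listed, 9 had a probe set of their own and 2 were bright enough to be tested, with 0 called in any comparison. Ifnb1, interferon β, had dim signals of 72.8 and 68.9 in KO and of 93.4 and 60.1 in WT tumours at day 6, and of 153.8 and 116 in KO and of 102.3 and 104 in WT tumours at day 4. The KO and WT values of Ifnb1 overlapped at day 6, and at day 4 both KO tumours were above both WT tumours. Of 12 tested genes of the receptor and its signalling, 0 were called between genotypes, and at day 4 11 were negative with a median of −0.25. That list shares Stat2, Irf9 and Usp18 with the 47 genes, so its counts are not separate from theirs. Socs1, an inhibitor of Jak kinases, rose by day 6 in KO hosts, with 1646 and 1057 at day 6 and 235.5 and 307 at day 4, a log2 fold change of 2.23 ± 0.26 (adjusted p = 0.0107 in limma). The other 11 did not pass in KO hosts, nor did any of the 12 in WT hosts. Of all genes 3.71% were called higher in KO and 4.16% in WT hosts.

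The list of cytosolic sensing holds transcription factors and enzymes beside sensors and adaptors. Of its 14 tested genes 3 rose in KO hosts and 1 in WT hosts, against 3.71% and 4.16% of all genes. Irf1, a transcription factor, rose by 2.02 in KO and by 1.24 in WT hosts on the log2 scale. Samhd1, a nucleotide hydrolase, rose by 1.32 and Sting1, the adaptor of cGAS, by 1.07 in KO hosts. Of 10 tested endosomal receptors and adaptors, Myd88 rose by 0.85 in KO hosts. Between genotypes 0 genes of these lists were called at either day.

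Other interferon-induced genes, outside the list of 47, were counted in the same comparisons. Of 46 tested, 40 were lower in KO than in WT tumours at day 4, with a median of −0.30, and 35 were higher at day 6, with a median of 0.19, 0 being called at either day. By day 6, 15 of the 46 rose and 0 fell in KO hosts, with 42 positive and a median of 0.66, against 3.71% of all genes called higher and 2.52% called lower. In WT hosts 0 of the 46 rose and 0 fell, against 4.16% and 1.66% of all genes, and 32 were positive with a median of 0.27, where the list of 43 had 15 positive and a median of −0.22. Those that rose included Cxcl10, a chemokine for T cells, at 3.61, the GTPases Ifi47 at 3.25, Irgm1 at 2.31 and Gbp3 at 2.17, and Cd274, which encodes PD-L1, at 2.34. Genes of antigen processing for MHC class I were among them, Nlrc5 at 2.13, Tap1 at 2.05, Psmb9 at 1.73, Psmb8 at 1.41, Tap2 at 1.24 and Tapbp at 0.90. Slfn2 at 1.34, Apobec3 at 1.21, Rnf213 at 0.88 and Ogfr at 0.66 made up the rest. Whether the rise differed between KO and WT hosts was tested as the interaction, which called 0 of the 46. Ifng, interferon-γ, to which many of these genes also respond, was below the limit for testing, with signals of 396 and 178 in KO and of 177.5 and 106.5 in WT tumours at day 6. At day 4 Ifng had 31.5 and 9.5 in KO and 25.4 and 32.9 in WT tumours. Its highest value was in KO day 6 replicate 1, the tumour in which most interferon response genes were highest, and the part of interferon-γ in their levels was not tested.

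Some genes had further probe sets. The second probe set of Zbp1 gave log2 fold changes of KO over WT of 0.69 at day 6 and −0.38 at day 4. A second probe set of Rtp4 gave −0.34 at day 6, where the brighter one gave 0.62, and 1 of the 3 of Dhx58 gave −0.34 at day 6 and 0.05 at day 4. Trim30a, a ubiquitin ligase, had 0.25 on its brighter and −0.06 on its other probe set at day 6. From day 4 to day 6 in KO hosts Ifi203 gave −0.66 on its own probe set and 0.49 to 1.16 on those it shares with other genes.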

How the data were processed

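RNA of 8 MOPC tumours was measured on Affymetrix mouse arrays with 45101 probe sets. The deposited values are linear signal intensities, 1 for each probe set. The submitters' processing notes name MAS5 with no version, and the 2% trimmed mean was 1000 on every array, so that scaling is part of the values. Detection calls were not used. Median signals were 133.2 to 175.2 and Spearman correlations within groups 0.941 to 0.953. The number of arrays limits the precision.

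Of the probe sets, 34958 had 1 gene symbol, 932 several and 9211 none, by the platform annotation. Each gene was represented by its brightest probe set, and genes whose mean reached the 40th percentile over probe sets, a signal of 78.6, were tested. Log2(signal + 16) was fitted in limma 3.58.1 (R 4.3.3) as 4 groups with 4 residual degrees of freedom and a trend on the mean, checked on simulated data. The fit had no replicate block, since the labels do not say what a number shares. For a single gene an exact two-sided permutation test of 2 tumours against 2 cannot go below 0.333, so none was used.

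The genes and lists were chosen with earlier results of these data known. For each comparison the text names the genes called, at most 8, filled up to 8 by the size of the fold change. Of the pathway lists it names the genes called. Adar, Ifi27l2a, Ifnb1 and Ifng fall outside this rule and were chosen after their values were seen. Groups were taken from the sample labels. Alternatives were quantile normalization, median centring, pseudocounts of 1 and 64, filters at none and at the 60th percentile, a floor at the 20th, the mean of all probe sets, no trend, a replicate block, the compared groups alone, the methods' t-test and leaving out each array.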

Additional observations from a re-analysis of the deposited data

How the results depend on the processing

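The median log2 fold changes kept their sign under all alternatives but these: the median of KO over WT at day 6 was −0.19 without KO day 6 replicate 1, and that over both days was 0.10 without KO day 6 replicate 2, 0.16 without the 3 tumours with muscle and 0.0011 with median centring. Leaving out 1 array at a time gave medians of −0.19 to 0.62 for KO over WT at day 6, −0.56 to −0.38 at day 4, 0.20 to 0.99 for day 6 over day 4 in KO hosts, −0.29 to −0.02 in WT hosts and 0.37 to 1.14 for the interaction. It gave 0 to 11 genes called between days in KO hosts, where all arrays gave 10, and 0 to 3 in WT hosts, where they gave 2. The count in KO hosts was 4 with the mean of all probe sets, 0 without the trend, 0 with the methods' t-test after adjustment and 4 unadjusted. In WT hosts it was 0 without the trend, 0 with the compared groups alone, 0 with the methods' t-test after adjustment and 4 unadjusted. Unadjusted, that test called 2 genes between genotypes at day 6 and 11 at day 4.

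With the replicate number as a block the count in WT hosts was 1 and in KO hosts 7, and 0 remained called between genotypes. Deviations of same-numbered tumours correlated at −0.12 to 0.27 over genes, so the numbers were not taken as pairs. With the numbers of WT day 6 crossed, 3 genes were called in WT hosts.

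With the 3 tumours with muscle left out, chosen after seeing the data, 6 genes were called between days in KO hosts, all higher, and 1 in WT hosts. The medians were then 0.62 at day 6 between genotypes and 0.91 between days in KO hosts, and Ifih1 over both days was 0.10. The causes were not tested. The 10 fold changes called for named genes lost the call in 59 of 200 refits and changed sign in 0, and the 38 not called, which had none to lose, gained one in 3 of 739 and changed sign in 1.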
